A study of Mus musculus with 7 samples.

Results

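On a gene expression array, a probe set is the group of short DNA probes that together give 1 value, and some probe sets read transcripts of more than 1 gene. The members described here are the 1801 of 33604 probe sets to which the platform annotation gives 2 or more gene symbols, though 4 of them repeat 1 symbol. A further 23493 had 1 symbol and 8310 had none. Of the members, 1130 listed 2 symbols, 671 listed 3 or more, and 130 listed 10 or more, up to 20. They carried 2701 distinct symbols in 1274 distinct lists. A value of a member can therefore mix, in unknown shares, the levels of the genes it lists. Which of the listed genes its probes read was taken from the symbols alone and not checked.

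The values come from RNA of mouse sperm on 7 arrays. TG3 males (3 arrays, each a pool of 4 males) were of generation 3 of a line carrying a KDM1A transgene, and nonTG3 (3 arrays, pools of 4 males) were littermates without it. The line began from 2 female founders, made by injecting the transgene into C57BL/6 zygotes, and the transgene passed through heterozygous males bred to C57BL/6 females. C57BL/6 was 1 array of a pool of 5 males, with no replicate. The labels used here name no promoter for the transgene. Nor do they state that every pool was of different males, and p-values then cover only the scatter among the pools measured.

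Genes present in many near-identical copies are a known feature of the mouse sex chromosomes. The X-linked Slx and Slxl1 genes and the Y-linked Sly genes are related families transcribed in round spermatids, the haploid germ cells that mature into sperm, and their proteins are known to oppose each other in regulating genes of both sex chromosomes. Other copies read together are tandem arrays on autosomes, such as vomeronasal receptor genes, and scattered processed pseudogenes of housekeeping genes. A probe set can also list unrelated neighbours whose transcripts overlap, or a small RNA and its host gene.

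Start-site sequences of Slx, Slxl1 and the Sly-family gene Gm20736 are shown first because probe sets of these families gave many of the calls below. Each is 300 bases from RefSeq, build GRCm38.p6, printed 5′ to 3′ on the gene's strand and beginning 250 bases before the annotated start. Slx lies at chrX:26545516-26545815 (minus strand), Slxl1 at chrX:55226626-55226925 (plus strand) and Gm20736 at chrY:65377440-65377739 (plus strand). Capitals mark stretches covered by words of 10 bases that all 3 share.
Slx: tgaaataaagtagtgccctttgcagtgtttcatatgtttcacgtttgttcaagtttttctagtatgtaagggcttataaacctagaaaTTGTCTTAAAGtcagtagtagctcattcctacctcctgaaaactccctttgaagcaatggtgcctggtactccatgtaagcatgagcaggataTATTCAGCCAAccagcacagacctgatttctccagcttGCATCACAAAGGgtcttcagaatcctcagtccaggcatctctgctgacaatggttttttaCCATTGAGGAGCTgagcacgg
Slxl1: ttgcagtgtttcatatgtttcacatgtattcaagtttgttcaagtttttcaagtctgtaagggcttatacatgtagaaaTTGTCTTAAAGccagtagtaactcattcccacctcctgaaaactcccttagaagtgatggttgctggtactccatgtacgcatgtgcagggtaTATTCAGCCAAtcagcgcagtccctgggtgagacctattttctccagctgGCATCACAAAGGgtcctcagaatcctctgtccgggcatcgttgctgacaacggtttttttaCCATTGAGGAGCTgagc
Gm20736: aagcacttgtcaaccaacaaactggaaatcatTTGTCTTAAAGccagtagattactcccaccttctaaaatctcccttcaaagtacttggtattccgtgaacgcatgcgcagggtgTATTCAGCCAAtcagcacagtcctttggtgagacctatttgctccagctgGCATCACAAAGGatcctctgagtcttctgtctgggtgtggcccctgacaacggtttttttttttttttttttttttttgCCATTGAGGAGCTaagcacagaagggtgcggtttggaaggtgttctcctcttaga
The capitals formed 4 stretches with 47 bases in all. On either strand, TTGTCTTAAAG was in 0.122% of all 32851 promoter windows of the table, TATTCAGCCAA in 0.134%, GCATCACAAAGG in 0.113% and CCATTGAGGAGCT in 0.0396%. Of the 31 genes of the Slx, Slxl1 and Sly groups 25 had a window, and the words, in that order, were in 22, 25, 24 and 6 of them. All 4 were in 8 windows of the table, 3 of them the windows that defined the words.

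A Samt1 pair shows how alike 2 genes of 1 probe set can be upstream. Samt1 lies at chrX:154012591-154012890 (minus strand) and Samt1b at chrX:154033778-154034077 (minus strand), and capitals mark the 1 base that differs.
Samt1: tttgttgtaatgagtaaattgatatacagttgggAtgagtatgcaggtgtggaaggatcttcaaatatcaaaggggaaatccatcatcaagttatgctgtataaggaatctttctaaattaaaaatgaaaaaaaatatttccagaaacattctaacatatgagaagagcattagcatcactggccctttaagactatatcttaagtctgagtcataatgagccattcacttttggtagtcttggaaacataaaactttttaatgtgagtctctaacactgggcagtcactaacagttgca
Samt1b: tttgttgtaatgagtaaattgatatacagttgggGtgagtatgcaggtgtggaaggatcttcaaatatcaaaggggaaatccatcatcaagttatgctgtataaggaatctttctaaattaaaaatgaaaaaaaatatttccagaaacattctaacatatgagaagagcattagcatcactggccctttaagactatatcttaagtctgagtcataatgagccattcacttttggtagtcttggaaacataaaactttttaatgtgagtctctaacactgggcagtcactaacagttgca
Tcte3 at chr17:15041510-15041809 (minus strand) is shown once because Gm3417 and Gm3448, listed by the same probe sets, had the same 300 bases.
Tcte3: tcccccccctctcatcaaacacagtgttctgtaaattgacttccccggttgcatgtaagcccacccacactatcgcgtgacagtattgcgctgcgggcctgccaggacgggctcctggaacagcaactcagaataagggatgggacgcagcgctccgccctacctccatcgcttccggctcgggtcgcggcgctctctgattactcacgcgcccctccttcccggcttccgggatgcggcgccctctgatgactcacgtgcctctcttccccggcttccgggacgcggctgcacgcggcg
In the promoter table, 1026 members had 2 or more of their genes, which gave 3133 distinct pairs. At the best of all offsets up to 60 bases, 1017 pairs matched at 90% or more of the bases. They comprised 988 of 2684 pairs of genes lying apart on 1 chromosome, 26 of 330 pairs with overlapping spans and 4 of 132 pairs on several chromosomes, where a pair can count in more than 1 class. The median best identity was 69.5%, 33.1% and 32.5% in these classes.

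Several facts of the whole series touch the comparisons with C57BL/6. Kdm1a itself, on its own probe set, read 5.64 in C57BL/6 and 5.06 to 5.27 in both TG3 and nonTG3, which limma did not call (adjusted p = 0.296). Of 11 sperm RNAs measured, 2 were called lower in the line: Tnp1, a transition protein of spermatid chromatin, read 12.40 in C57BL/6 and 9.23 to 9.85 on the other arrays, and Prm1, a protamine, read 11.64 against 10.08 to 10.35. Of 12 markers of Sertoli and Leydig cells, the somatic cells of the testis, 4 were called lower: Cst9 read 7.66 in C57BL/6 and 2.32 to 3.30 on the other arrays, Cyp17a1 6.56 against 2.16 to 2.70, and Hsd3b6 4.39 against 1.71 to 2.27. The fourth was Star. The other 8 were not called and changed by -0.40 to 0.20. Sox9, Amh and Wt1 changed by 0.20, 0.15 and 0.15, and Inha, Rhox5 and Clu by -0.40, -0.20 and -0.13. Cyp11a1 and Hsd3b1 changed by 0.013 and -0.010. The median change of the 12 was -0.17, and their mean reading was 4.64 in C57BL/6 and 3.34 to 3.72 on the others. Of 11 leukocyte and 12 fibroblast, muscle and vessel markers, limma called 0, and of 12 epididymal markers 1 was higher. The part of these markers in the results below was not tested. Mean readings of 10 mitochondrially encoded RNAs were 8.80 in TG3 replicate 1, 8.91 in nonTG3 replicate 3 and 9.98 in nonTG3 replicate 2, against 11.24 to 11.55 on the other arrays.

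In the comparison of the line (the mean of TG3 and nonTG3) with C57BL/6, limma called 86 members at a Benjamini-Hochberg adjusted p under 0.05 over all probe sets, or 4.78% of members beside 2.41% of all 33604. Of the 86, 85 were lower in the line (2.32% of all probe sets were) and 1 was higher (0.0923% of all). The calls came from 73 distinct rows of values and 47 distinct symbol lists. Some probe sets repeat a row of values, and sets with different rows can share a list. Whether sets with a repeated row hold the same probes was not checked. The median change of members was 0.016 on the log2 scale, beside 0.043 over all probe sets, and 836 members read lower in the line and 963 higher. The called share was 29.46% for members with all genes on the X chromosome (38 of 129), 8.47% on the Y (10 of 118) and 2.37% on single autosomes (32 of 1351). Outside X and Y together it was 2.45% (38 of 1554), near that of all probe sets. Members outside the Slx, Slxl1 and Sly groups were called at 2.97% (51 of 1720). Of all probe sets with 1 symbol, 2.74% were called (644 of 23493), with 1.8% on the X (17 of 944) and 8.11% on the Y (3 of 37). Members also read brighter, with array medians of 4.22 to 4.29 beside 3.52 to 3.61 over all probe sets.

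**Figure D1:**
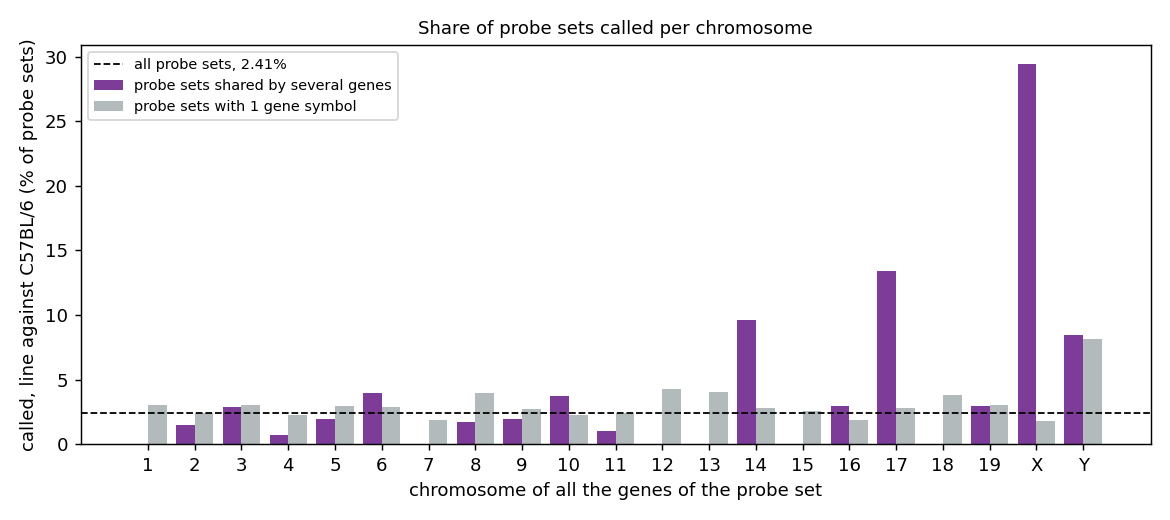
Bars give, for each chromosome, the percentage of probe sets called in the line against C57BL/6, for members (purple) and for probe sets with 1 symbol (grey), and the dashed line marks 2.41% of all probe sets. The bars of members are highest on X (29.46%), 17 (13.43%), 14 (9.59%) and Y (8.47%, grey bar 8.11%), chromosomes 6, 10 and 16 also exceed the line and their grey bars with 1 or 2 calls each, and the bars were not tested against each other.

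The comparison rests on a single C57BL/6 array, which adds nothing to the estimated spread. Without both arrays lowest in mitochondrial RNA, limma called 0 members, with a smallest adjusted p of 0.0799, and without nonTG3 replicate 2 it called 54. In bulk RNA, fewer cells of a type and less RNA per cell cannot be told apart.

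The X-linked Slxl1 and Slx groups fell in the line at every probe set. Members linked by shared symbols were taken as 1 group. The 13 Slxl1 probe sets, which list Slxl1, an X-linked relative of Slx, with Gm14625, Gm16404, Gm16405 and Gm16430, had a median of 8.55 in C57BL/6, 5.06, 5.69 and 5.51 in TG3 and 5.60, 5.75 and 5.67 in nonTG3. The C57BL/6 array stood apart, and the arrays of TG3 and nonTG3 overlapped. All 13 were called, with a median change of -2.93 on the log2 scale, 7.63-fold lower, and changes of -3.09 to -2.61.

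The Slx group had 12 probe sets listing up to 19 symbols each and 21 genes in all, with 6 distinct rows of values. Its median was 8.56 in C57BL/6, 5.46, 5.79 and 5.23 in TG3 and 5.77, 5.79 and 5.87 in nonTG3. All 12 were called, and their median change was -2.89. The set with the largest change in the group listed 19 symbols and read 10.27 in C57BL/6, 6.48, 7.53 and 6.29 in TG3 and 7.11, 7.24 and 7.13 in nonTG3. Its change was -3.30 (SE 0.44, limma adjusted p = 0.0237), but its call was lost in 5 of 6 fits without 1 array (adjusted p up to 0.0908). Calls in these groups numbered 12 or 13 in Slxl1 and 10 to 12 in Slx in fits that left out any 1 array of the line.

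On the Y chromosome all 118 members, with 64 distinct rows of values, were lower in the line, and 10 passed the test. The Sly group held 56 probe sets over 5 genes, with only 19 distinct rows of values. Its median was 8.22 in C57BL/6, 6.90, 6.85 and 6.05 in TG3 and 6.68, 7.18 and 6.93 in nonTG3. The C57BL/6 array was above every other array at all 56, and the median change was -1.59. The 10 calls were all among the 13 sets that list only Gm20736 and Gm20871, which hold 7 distinct rows. Medians of the 13 sets were 8.34 in C57BL/6, 6.52, 6.75 and 6.20 in TG3 and 6.52, 6.79 and 6.70 in nonTG3. Of the 39 sets (12 distinct rows) that name Sly itself, limma called 0, with adjusted p-values of 0.0740 to 0.660 and a median change of -1.53. These calls moved with single arrays: 0 of the 56 passed without nonTG3 replicate 1, 2 or 3, 2, 7 and 14 without TG3 replicate 1, 2 and 3, and 39 after cyclic loess normalization.

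Ssty genes encode spindlin-related proteins of spermatids and are repeated along the mouse Y long arm. The Ssty2 group had 48 probe sets, with 35 distinct rows of values, and the Ssty1 group had 10, with 7. Over both groups, 28 sets list Ssty1 or Ssty2 itself, and their median change in the line was -1.02. The rest list only genes linked to these by shared symbols. The 48 sets of the Ssty2 group had a median of 6.77 in C57BL/6, 5.64, 5.12 and 4.57 in TG3 and 5.04, 6.04 and 6.19 in nonTG3. The 10 Ssty1 sets had a median of 5.74, then 5.29, 4.99 and 4.75 in TG3 and 4.73, 5.65 and 5.29 in nonTG3. The median changes were -1.25 and -0.79, and limma called 0 in both groups, with smallest adjusted p-values of 0.209 and 0.336. C57BL/6 was the highest array at 47 of the 48 and 8 of the 10 sets, while that held for 21.3% of all members and 13.1% of all probe sets.

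**Figure D2:**
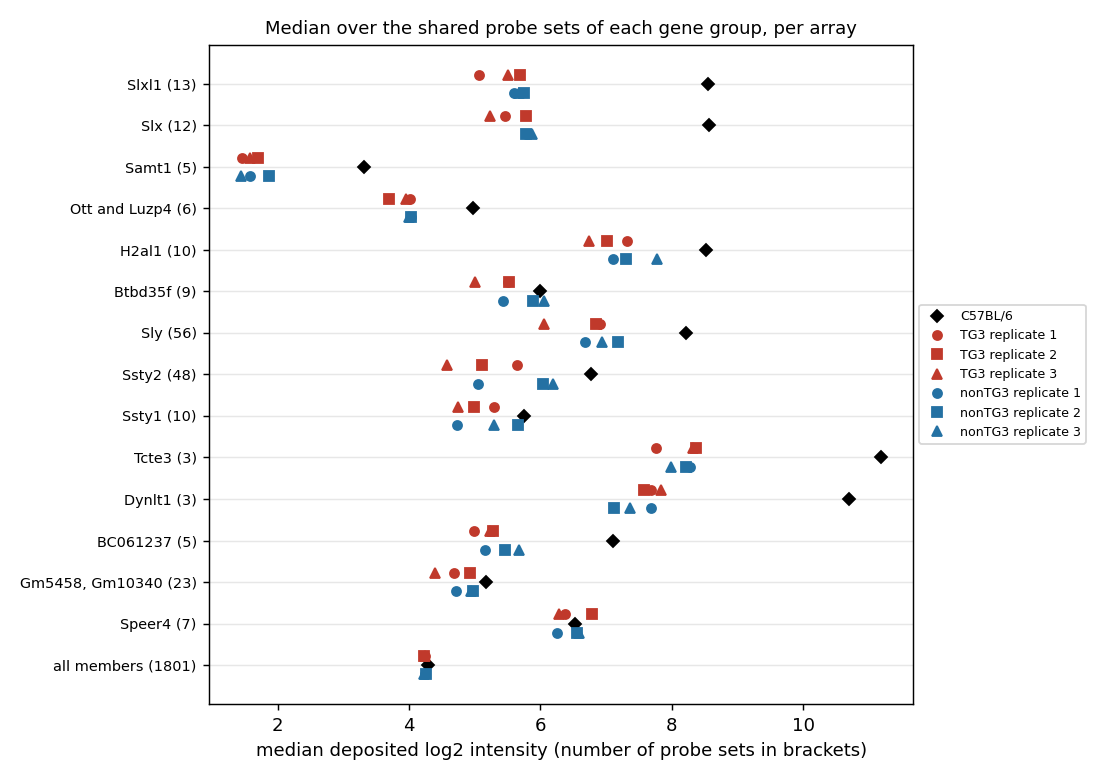
Each point is the median deposited log2 intensity over the probe sets of a gene group on 1 array, with the number of sets in brackets, and colours and shapes mark the array. C57BL/6 lies apart to the right in Slxl1, Slx, Samt1, Ott and Luzp4, Sly, Tcte3, Dynlt1 and BC061237. It is also the rightmost point, by less, in H2al1, Ssty2, Ssty1, Gm5458 with Gm10340 and all members, and lies among the other arrays in Btbd35f and Speer4.

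Other X-linked groups of testis genes differed in whether they passed. Samt1 encodes a membrane protein of spermatogenic cells, and all 5 sets listing its 5 copies fell. The brightest of them read 6.77 in C57BL/6, 3.30, 3.47 and 3.03 in TG3 and 3.83, 4.17 and 3.92 in nonTG3, a change of -3.15 (SE 0.20, limma adjusted p = 0.0035). The other 4 read 3.29 to 3.39 in C57BL/6, under the lowest array median of 3.52, where a signal above background was not measured.

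All 6 sets for the Ott and Luzp4 genes read lower in the line and 3 were called, and 1 of the 3 lost its call in 5 of 6 fits without 1 array (adjusted p up to 0.0891). The group's median was 4.98 in C57BL/6, 4.02, 3.69 and 3.95 in TG3 and 4.02, 4.02 and 4.00 in nonTG3. A pair of sets for 1700003E24Rik, 1700010D01Rik and 1700084M14Rik also fell, and the second read 9.72 in C57BL/6 and 7.85 to 8.26 on the other arrays.

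The H2al1 genes encode histone H2A variants incorporated in condensing spermatids. Their 10 sets had a median of 8.53 in C57BL/6, 7.32, 7.02 and 6.74 in TG3 and 7.11, 7.31 and 7.78 in nonTG3, a median change of -1.34. C57BL/6 was highest at all 10, yet limma called 0, with a smallest adjusted p of 0.0727. The 9 sets of the Btbd35f genes had medians of 5.99 in C57BL/6 and 5.00 to 6.05 on the other arrays, with 0 called and a smallest adjusted p of 0.584. On the X outside the Slx and Slxl1 groups, 13 members were called, or 12.5%.

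Genes of the t complex of chromosome 17 gave 7 of the 9 calls there. Tcte3 and Dynlt1 encode dynein light chains, parts of the motors of axonemes and of cytoplasmic transport. The brightest of 3 sets shared by Tcte3, Gm3417 and Gm3448 read 11.45 in C57BL/6, 7.76, 8.38 and 8.32 in TG3 and 8.28, 8.21 and 8.01 in nonTG3. Its change was -3.29 (SE 0.25, limma adjusted p = 0.0045), and the other two sets changed by -2.85 each.

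All 3 sets shared by Dynlt1a, Dynlt1b, Dynlt1c and Dynlt1f alone fell, by a median of 3.09 on the log2 scale. The brightest read 10.78 in C57BL/6, 7.68, 7.58 and 7.83 in TG3 and 7.68, 7.11 and 7.36 in nonTG3. One of 2 Tcp10 sets, for Tcp10b and Tcp10c, fell from 6.38 in C57BL/6 to 3.84 to 4.48 on the other arrays (limma adjusted p = 0.0153, but up to 0.0605 without TG3 replicate 3 or nonTG3 replicate 1).

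On chromosome 14, 7 of 73 members were called lower in the line, or 9.59% beside 2.32% of all probe sets. Of 5 sets for BC061237, Gm10375, Gm10377 and 1700001F09Rik, 4 were called, and their median was 7.11 in C57BL/6, 4.98, 5.28 and 5.23 in TG3 and 5.16, 5.46 and 5.67 in nonTG3. Each of the 4 calls was lost in 3 to 5 of the 6 fits without 1 array, at adjusted p-values up to 0.0739. Of 23 sets over 37 genes linked through Gm5458 and Gm10340, 3 were called, with a median change of -0.30 for the group. C57BL/6 was the highest array at 10 of the 23.

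The largest decrease of any member belonged to Cmtm2a and Cmtm1, neighbouring MARVEL-domain genes of chromosome 8 known from testis. Their set read 8.24 in C57BL/6, 4.99, 5.21 and 4.80 in TG3 and 5.03, 4.80 and 4.75 in nonTG3, a change of -3.31 (SE 0.19, limma adjusted p = 0.00282), 9.91-fold lower. The set for the alpha tubulins Tuba3a and Tuba3b read 8.22 in C57BL/6 and 5.29 to 6.17 on the other arrays (limma adjusted p = 0.0165), but the call was lost without TG3 replicate 3, nonTG3 replicate 1 or nonTG3 replicate 2, where the adjusted p reached 0.0641. The chromosome 14 groups, Tcp10, Tuba3a and Tuba3b, and the pairs named below for overlap or scattered copies were chosen after their values were seen.

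Members whose genes overlap on 1 chromosome were called near the overall share, 15 of 569 or 2.64%. Mns1 and Ccdc39 among them encode ciliary and flagellar proteins. Morn2 and Dhx57 read 7.72 in C57BL/6 and 6.19 to 6.32 on the other arrays, Mns1 and Tex9 7.22 against 5.06 to 5.69, and Ttc14 and Ccdc39 5.90 against 3.81 to 4.59. The Ttc14 call was lost in all 6 fits without 1 array, and the Mns1 call in 5 of them, with an adjusted p of up to 0.109. Galk2 and Fam227b read 5.77 in C57BL/6 and 3.42 to 3.84 on the others, a change of -2.09 (SE 0.15, limma adjusted p = 0.00415). The 1 member called higher in the line, for the protease Capn1 and Gm10814, read 3.87 in C57BL/6, 4.59, 4.78 and 4.70 in TG3 and 4.59 in all nonTG3 arrays (limma adjusted p = 0.0317), and it passed in 1 of 6 fits that left out an array, with an adjusted p of up to 0.0877 in the others.

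A microRNA and its host share a set in some of these. The set of AA467197 and Mir147 read 8.04 in C57BL/6, 5.77, 5.86 and 5.73 in TG3 and 5.70, 5.14 and 5.58 in nonTG3, a change of -2.41 (SE 0.21, limma adjusted p = 0.00647). The set of Trim80 and Mir3968 read 7.11 in C57BL/6 and 5.49 to 5.98 on the other arrays, and its call was lost in 5 of 6 fits without 1 array (adjusted p up to 0.0812). The mature microRNAs, with the seed at bases 2 to 8 in capitals, are given from RefSeq (GRCm38.p6) to show that no seed is shared among these 3. Mir707, listed with Akt1s1, had the highest mean of the members sorted to the microRNA family.
mmu-miR-147-5p: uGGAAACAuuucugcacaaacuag
mmu-miR-3968: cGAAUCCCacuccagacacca
mmu-miR-707: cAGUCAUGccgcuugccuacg
They lie at chr2:122640814-122640837 (plus strand), chr11:115447969-115447989 (minus strand) and chr7:44849705-44849725 (plus strand). Akt1s1 and Mir707 read 8.84 in C57BL/6 and 8.80 to 9.88 on the other arrays. Of 86 members that list a microRNA gene with an overlapping gene, both sets above were called, or 2.33% beside 2.41% of all probe sets. Host RNA and the short mature form were not measured apart.

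Members with genes on several chromosomes were called at 3% (6 of 200), and they include parents with scattered copies. Pdcd5, a gene linked to programmed cell death, and Pdcd5-ps read 8.47 in C57BL/6, 6.76, 6.64 and 6.48 in TG3 and 6.47, 6.65 and 6.85 in nonTG3 (limma adjusted p = 0.00883). Ppp1cc, a phosphatase needed for sperm formation, and Gm9315 read 8.85 in C57BL/6 and 6.44 to 7.25 on the other arrays (limma adjusted p = 0.0368), a call lost in 4 of 6 fits without 1 array (adjusted p up to 0.111). Of 338 members that list a pseudogene, on any chromosome and including X and Y, 17 were called, all lower, or 5.03%. That was near the 4.78% of all members called, beside 2.41% of all probe sets.

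**Figure D3:**
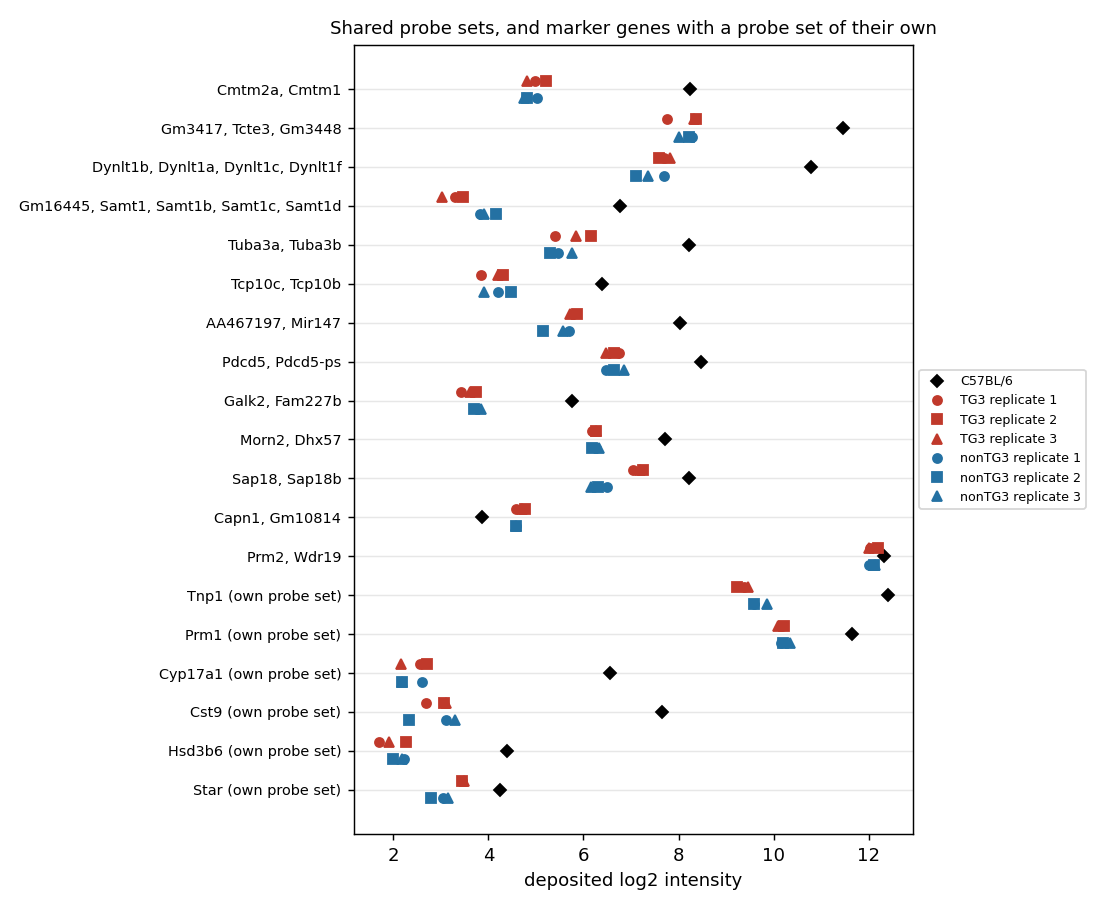
Points are deposited log2 intensities of single probe sets on each array, with 13 members above and 6 marker genes with a probe set of their own below. C57BL/6 lies to the right of the other arrays in every row but Capn1 with Gm10814, including Tnp1, Prm1 and the 4 Sertoli and Leydig markers called lower. The 8 markers of that list not called are not drawn.

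Of 134 genes listed by called members, 35 also had probe sets of their own, 42 in all. Of the 42, 3 were called, 1 each of 1700020N15Rik, BC061237 and Gm10413, or 7.14% beside 2.41% of all probe sets. The called BC061237 set changed by -2.54. Its other own sets, at 6.87 and 6.98 in C57BL/6, changed by -0.20 and -0.15 and were not called. The own set of 1700010D01Rik changed by -1.49 (limma adjusted p = 0.073), beside -1.67 and -1.58 for its shared sets, and that of Gm5797 by -1.50 (adjusted p = 0.262). The Slx set of its own read 4.20 in C57BL/6, and the mean of the line's 6 arrays was 3.26 ± 0.43 (SD), a change of -0.94 (limma adjusted p = 0.515), beside -3.30 to -2.73 for its shared sets. Cmtm1 alone changed by -0.46 (limma adjusted p = 0.666), beside -3.31 with Cmtm2a. That own set read only 3.17 in C57BL/6, under the lowest array median of 3.52, and had little room to fall. The same limit holds for other own sets, such as those of Gm16445 (2.58) and Gm15097 (2.35). The 3 Eif4a2 sets changed by -0.14 to 0.10, where the set shared with Rfc4, a replication factor, changed by -0.95. Trim80 alone read 6.67 in C57BL/6 and changed by -0.10, beside -1.29 with Mir3968. Of the 42 own sets, 26 read lower in the line.

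**Figure D4:**
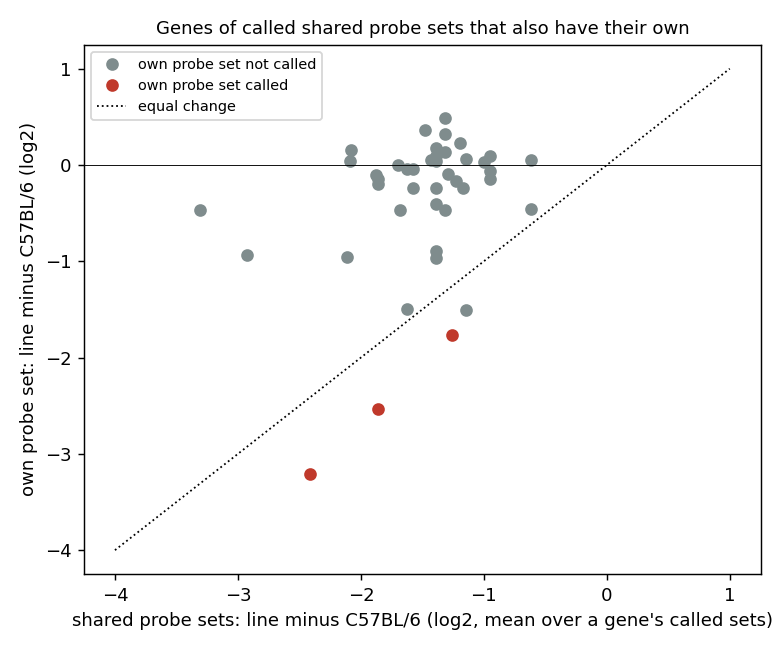
Each point is a probe set for 1 gene that is also listed by called members, with the mean change of the gene's called shared sets on the x axis and the change of its own set on the y axis (log2, line minus C57BL/6). The 3 called own sets (red, 7.14% of 42) lie below the dotted line of equal change, and most others lie above it. Own sets that read low in C57BL/6, such as that of Cmtm1, had little room to fall.

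The design also sets TG3 beside nonTG3, carriers beside littermates lacking the transgene, and limma called 0 of 1801 members, as it did 0% of all probe sets. The smallest limma adjusted p was 0.917. Unadjusted p-values under 0.05 numbered 45, or 2.5% of members beside 2.51% of all. The median change of TG3 minus nonTG3 was -0.039 for members and 0.00088 for all. In 80 members, or 4.44%, the arrays of TG3 and nonTG3 did not overlap, beside 4.33% of all.

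The smallest unadjusted p belonged to Sap18 and Sap18b, subunit genes of a histone deacetylase complex on chromosomes 14 and 8. Their set read 7.05, 7.26 and 7.20 in TG3, 6.50, 6.31 and 6.16 in nonTG3 and 8.21 in C57BL/6. TG3 lay above nonTG3 without overlap, by 0.84 on the log2 scale (SE 0.12, limma adjusted p = 0.917). Akr1c13 and Akr1c12, aldo-keto reductases, read 5.07, 5.61 and 5.87 in TG3 and 4.83, 4.26 and 4.10 in nonTG3, also without overlap.

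A set listing 13 histone H4 genes, and 2 sets for H2bc15, H2bc13, H2bc11 and H2bc7, were also among the 5 smallest p-values on the higher side, but their readings of 1.39 to 3.53 in the line were near or under the array medians. Of 46 core histone members, 34 were higher in TG3 and 12 lower, with a median difference of 0.13, and limma called 0. On the lower side, the brightest Samt1 set differed by -0.71, with TG3 readings of 3.03 to 3.47, under the lowest array median of 3.52. Zfp991 with Zfp993, zinc finger genes, differed by -0.73, reading 5.44, 5.14 and 4.79 in TG3 and 5.51, 6.05 and 6.01 in nonTG3. Scarna3b with Mir1843a, Cd209f with Cd209g, and the amylase genes differed by -0.50 to -0.58, each at an adjusted p of 0.917.

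The sex-linked groups were lower in TG3 than in nonTG3 by median differences that passed no test. The difference was -0.14 in Slxl1, -0.31 in Slx, -0.29 in Sly, -0.63 in Ssty2 and -0.36 in H2al1, and limma called 0. TG3 replicate 3 had the lowest median of the 6 arrays in Slx, Sly, Ssty2, H2al1 and Btbd35f, but not in Slxl1 or Ssty1. Against C57BL/6 separately, limma called 80 of 1801 members lower in TG3, beside 666 of 33604 probe sets (1.98%). In nonTG3 it called 80 of 1801 lower, beside 670 of 33604 (1.99%). Both comparisons share the C57BL/6 array.

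Large autosomal families read low in sperm, and single arrays stood out in them. Vomeronasal and olfactory receptors detect odours and pheromones in the nose. The 44 members with Vmn1r genes had a median of 2.65 in C57BL/6, 2.69, 2.65 and 2.81 in TG3 and 2.71, 3.77 and 2.81 in nonTG3. nonTG3 replicate 2 was the highest of the 6 arrays of the line at 42 of 44, beside 24% of members and 14.3% of all probe sets. The same array was highest at 30 of 42 Pramel members, all 9 with Ifnz and all 16 of Snord116, a small nucleolar RNA family with a single row of values, but at 6 of 23 olfactory receptor members. Their medians without that array lay under 3.52, except for Ifnz (4.60 to 4.95) and Snord116 (4.70 to 5.24), and limma called 0 members of these 5 families in either comparison.

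Globin and ferritin members varied widely among the arrays of the line. The 2 Hba sets had medians of 7.91 in C57BL/6, 6.15, 8.43 and 8.18 in TG3 and 7.96, 5.09 and 5.41 in nonTG3. The 3 Hbb sets read 5.57, then 2.88, 6.08 and 6.03 in TG3 and 6.08, 3.33 and 3.14 in nonTG3. Both are low in TG3 replicate 1 and nonTG3 replicates 2 and 3, the arrays also low in mitochondrial RNA, whose part was not tested. Ftl1, a ferritin light chain with its pseudogenes, had medians of 7.73 in C57BL/6, 7.98, 8.98 and 8.69 in TG3 and 8.78, 6.39 and 7.21 in nonTG3. The 59 ribosomal protein members had medians of 5.24 to 5.85 on all 7 arrays, with 0 called.

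**Figure D5:**
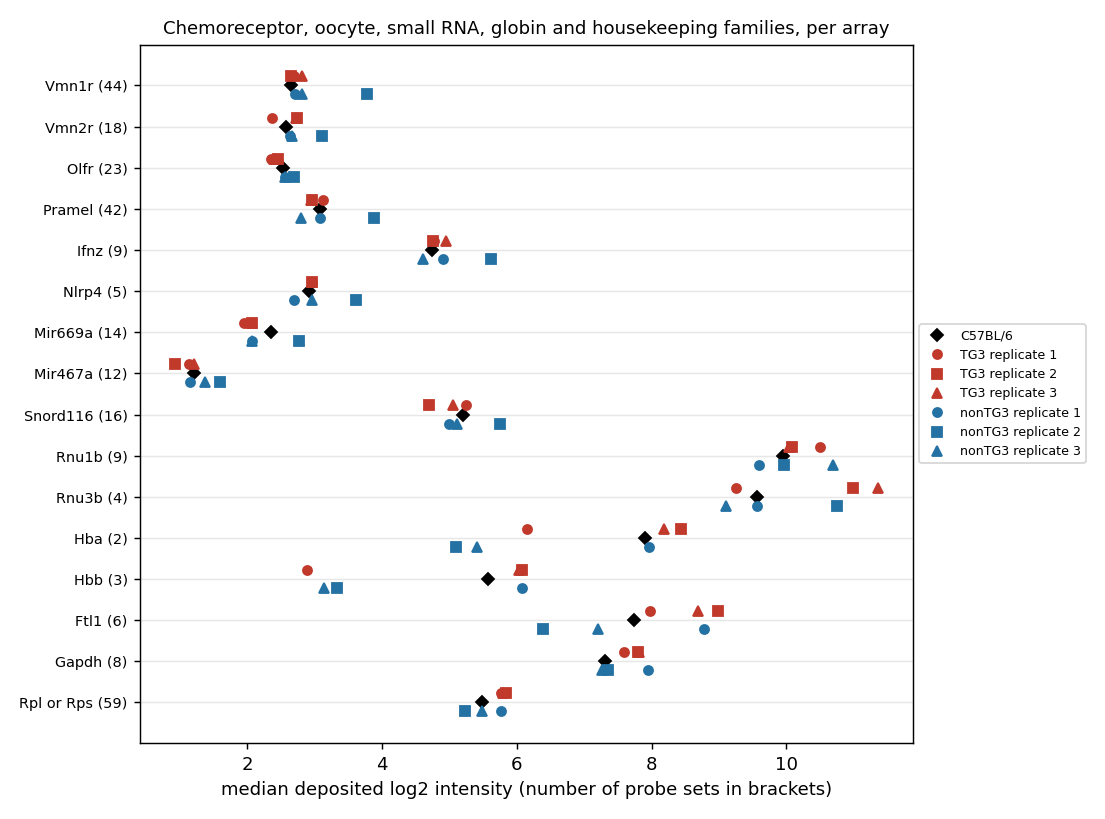
Each point is the median deposited log2 intensity over the members of a family on 1 array, with the number of members in brackets. nonTG3 replicate 2 (blue square) lies to the right in Vmn1r and Pramel and to the left in Ftl1, and Hba and Hbb split the arrays into high and low.

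The brightest members belonged to protamine, mitochondrial and small nuclear RNAs, and limma called none of the 12 highest. The set of Prm2, a protamine, listed with Wdr19, read 12.32 in C57BL/6, 12.03, 12.20 and 12.01 in TG3 and 12.00, 12.11 and 12.13 in nonTG3 (line against C57BL/6, limma adjusted p = 0.63). The mitochondrial sets COX2 with Prf1 and ATP6 with ATP8 had a joint median of 11.61 in C57BL/6, 10.17, 11.66 and 11.88 in TG3 and 11.88, 10.69 and 10.56 in nonTG3. Gstm5, a glutathione transferase, read 10.14 to 10.94 over the 7 arrays. The 9 sets of Rnu1b1, Rnu1b2 and Rnu1b6, genes of the U1 spliceosomal RNA, repeat a single row of 9.95 in C57BL/6, 10.50, 10.08 and 10.05 in TG3 and 9.60, 9.97 and 10.70 in nonTG3. The 4 Rnu3b sets, for the U3 RNA, ranged from 9.10 in nonTG3 replicate 3 to 11.36 in TG3 replicate 3, and limma called 0 of either.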

How the data were processed

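The authors deposited log2 intensities, and the submitters' processing notes name R 3.1.0, oligo, RMA and limma. RMA removes background, gives all arrays 1 distribution and reduces each set's probes to 1 value, which cannot be divided among copies. Array medians lay between 3.52 and 3.61. No source used here gives the build of the array annotation. The RefSeq gene table (GRCm38.p6) served only for names, chromosomes and whether spans overlap. It held 2615 of the members' 2707 gene identifiers.

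One limma 3.58.1 model (R 4.3.3) holding 3 group means was fitted over the 33604 probe sets of 7 arrays and moderated with eBayes (4 residual and 1.65 prior degrees of freedom). Benjamini-Hochberg adjustment ran over the whole table, and calls are those below 0.05. The line's contrast is the mean of TG3 and nonTG3 minus C57BL/6. The lone C57BL/6 array is assumed to vary like the others. The model was tested on simulated data with known changes. There the C57BL/6 array was given the same spread as the others, so that assumption was not tested. For arrays, precision is limited by their number.

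Members linked by any shared symbol formed 986 groups, 279 of them with more than 1 probe set. Of members, 22.5% held at most 4 distinct values over the 6 arrays of the line, beside 29.7% of all probe sets. Members, lists and families were chosen with earlier results of these data known, and some family names were added after the symbols were seen. Named members were, per contrast, the 10 largest called changes in each direction whose groups did not overlap or, with none called, the 5 smallest p-values in each direction. Per family of 10 or more, the brightest member and up to 3 with the smallest p in the line's contrast were added, and so were the 10 members with most symbols and the 12 brightest. Alternatives covered normalization, eBayes settings, array weights, filters, thresholds, membership rules, arrays left out and a replicate block. Figures were drawn with matplotlib 3.10.9.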

Additional observations from a re-analysis of the deposited data

How the results depend on the processing

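For the line against C57BL/6, 86 of 1801 members were called. The count was 131 after cyclic loess, 49 of the 671 members with 3 or more symbols, and 47 of 1274 when each symbol list counted once. It was 0 without both arrays lowest in mitochondrial RNA, where 2 residual degrees of freedom were left. The last 2 settings were chosen after seeing the data. Leaving out 1 array of the line gave 54 to 76, the lowest without nonTG3 replicate 2, and 49 of the 86 kept their call in all 6 fits. With the replicate block it was 0, as given below, and the remaining settings gave 80 to 120. The median change of members moved from 0.016 to -0.027 with median centring, -0.047 with cyclic loess and -0.012 both among brighter probe sets and with 3 or more symbols. Leaving out 1 array gave -0.0011 to 0.018. For TG3 against nonTG3, 0 members were called under every alternative run. Their median change of -0.039 became -0.18 with 3 or more symbols and ranged from -0.047 to -0.011 without 1 array. The cause of these shifts was not tested.

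TG3 and nonTG3 share replicate numbers, but deviations of same-numbered arrays correlated at -0.41, 0.0038 and -0.38 across probe sets, so the numbers were not taken to pair them. With the replicate block, 0 members were called in the line against C57BL/6 (smallest adjusted p 0.0858) and 0 in TG3 against nonTG3, and the medians kept their values. None of the named members' called changes reversed. Whether a reading under the array median was above background was not measured.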
